A study of Mus musculus with 21 samples.

Results

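Heparan sulfate enzymes were followed through 10 genes which code for proteins that build, sulfate or edit heparan sulfate, chosen by symbol because of their levels in RhoC against NeuNT control tumors. They are the polymerase subunits Ext1 and Ext2, the N-sulfating enzyme Ndst1, the 6-O-sulfotransferases Hs6st1 and Hs6st2, the 3-O-sulfotransferases Hs3st1, Hs3st3a1 and Hs3st3b1, and the extracellular 6-O-endosulfatases Sulf1 and Sulf2. All 10 passed the filter on low counts, among 19315 genes tested of 38730 with a read in any tumor. Since the cohort difference chose these genes, their values by cohort are a description, and counts of calls among them are given only beside the share of all genes called.

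Heparan sulfate is a linear sugar chain carried by core proteins such as syndecans and glypicans. The chain is polymerized in the Golgi on a short linker, and patches of it are then N-sulfated, epimerized and O-sulfated, which makes binding sites for growth factors, Wnt ligands and chemokines. The sulfatases remove 6-O-sulfates from finished chains outside the cell, and 3-O-sulfation is the rarest of these modifications.

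Bulk RNA sequencing of mammary tumors gave 9 control tumors from 9 mice and 12 RhoC tumors from 8 mice. All mice carried the FloxNeoNeuNT allele, an activated Erbb2 (Neu) made expressible by Cre, together with MMTV-CreNLST, in which a mammary tumor virus promoter drives Cre mainly in mammary epithelium. The RhoC genotype was R26(RhoC/+);FloxNeoNeuNT;MMTV-CreNLST, with a mouse RhoC cDNA switched on by the same Cre. Of the controls, 7 were Gata4(loxP/+);FloxNeoNeuNT;MMTV-CreNLST and 2, N-15 and N-17, were FloxNeoNeuNT;MMTV-CreNLST. No ages or treatments were given in the labels. Mouse P497 gave the 4 RhoC tumors R-13 to R-16, and mouse N9255 gave R-6 and R-7. The label of R-21 names the mouse that the study's tumor list gives for R-20, and that of R-18 names none, so R-18 was treated as a mouse of its own. That list gives complex adenocarcinoma for R-7, R-10, R-12 and R-16 and squamous cell carcinoma for R-6, R-13 and R-14. Among controls it gives the former for N-4 alone and the latter for none, most being poorly differentiated or solid nodular. It gives no histology for N-17, R-18 and R-21. The part of histology in the results was not tested.

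Total counts per tumor ran from 47552423 to 100741339 in controls and from 47309780 to 85326903 in RhoC tumors. Levels are given as CPM, the count of a gene as a share of all counts of its library on a common scale, with TMM factors to set the libraries level. Rhoc, on which reads of the transgene are also counted, was at 77.7 ± 53.7 CPM (SD, n = 9) in controls and 88.8 ± 33.5 CPM (n = 12) in RhoC tumors. Its medians were 50.7 and 88.2 CPM, with 11 of 12 RhoC tumors above the control median, but the library labelled R-2 was at 22.8 CPM, below every control. Without R-2 the log2 fold changes were 4.72 for Hs3st3a1 and 2.02 for Hs3st3b1, against 4.61 and 1.93 with all tumors. Erbb2 was at 1339 ± 882 CPM in controls, with N-15 lowest at 57.9 CPM, and at 806 ± 522 CPM in RhoC tumors. Summed luminal epithelial markers (Krt8, Krt18, Krt19, Epcam and Elf5) lay between 467 and 5054 CPM in every tumor. N-17 held 1338 CPM of them beside 3834 CPM of skeletal muscle and 299 CPM of adipocyte markers, and R-10 held 467 CPM beside 563 CPM of skeletal muscle and 9007 CPM of fibroblast markers. The part of these tissues in the results was not tested, and the log2 fold change of Hs3st3a1 was 4.60 without N-17 and 4.56 without R-10, and that of Hs3st3b1 was 2.04 and 1.77. In RNA from whole tumors, fewer cells of a type and less RNA per cell cannot be told apart.

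Among the 10 genes the cohorts differed most, by log2 fold change, at the neighbouring genes Hs3st3a1 and Hs3st3b1. Their enzymes make the same 3-O-sulfated structure, the one bound by glycoprotein D of herpes simplex virus. On GRCm38, Hs3st3b1 lies on the minus strand at chr11:63885792-63922290 and Hs3st3a1 on the plus strand at chr11:64435332-64522841. The gap between them is 513 kb. They are shown with the 250 bases before their transcription starts (RefSeq, GRCm38.p6), because the levels of the pair varied together among tumors. That relation, given below, rested on the mice of R-21 and R-10. Capitals mark matches to the GC box GGGCGG and the CCAAT box CCAAT on either strand.
Hs3st3a1, chr11:64435082-64435331, plus strand: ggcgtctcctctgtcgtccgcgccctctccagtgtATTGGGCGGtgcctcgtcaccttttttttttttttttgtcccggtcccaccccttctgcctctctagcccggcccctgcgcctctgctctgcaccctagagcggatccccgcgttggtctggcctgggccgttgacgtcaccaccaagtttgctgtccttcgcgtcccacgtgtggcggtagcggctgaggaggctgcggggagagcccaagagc
Hs3st3b1, chr11:63922285-63922534, minus strand: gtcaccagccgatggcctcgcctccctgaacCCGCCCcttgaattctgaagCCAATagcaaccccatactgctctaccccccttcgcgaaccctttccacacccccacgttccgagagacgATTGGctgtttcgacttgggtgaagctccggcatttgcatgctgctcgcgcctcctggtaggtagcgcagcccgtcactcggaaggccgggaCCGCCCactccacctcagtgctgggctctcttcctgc
The Hs3st3a1 window held 1 GC box and 1 CCAAT box, which overlap in 1 run of capitals. The Hs3st3b1 window held 2 of each, all apart. Neither held TATAAA. Among 32851 windows of the same length before RefSeq starts, 32.7% held a GC box, 33.8% a CCAAT box and 12.4% TATAAA, so these matches were common ones. Entries of this kind were kept for 7 of the 10 genes, and any on the chromosome of Ndst1 were left out.

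Hs3st3a1 was nearly silent in controls and present in every RhoC tumor. In controls it ran from 0.230 CPM in N-9 through a median of 1.41 CPM to 2.98 CPM in N-3. In RhoC tumors it ran from 4.05 CPM in R-6 through a median of 8.28 CPM to 264 CPM in R-21. All 12 RhoC tumors were therefore above every control, although the lowest RhoC tumor and the highest control were close. R-21 stood far above the next RhoC tumors, R-10 at 48.2 CPM, R-16 at 39.2 CPM and R-7 at 30.5 CPM. The means were 1.48 ± 0.889 CPM in controls and 36.1 ± 73.4 CPM in RhoC tumors, and 15.42 ± 15.96 CPM (n = 11) without R-21. The log2 fold change was 4.61 with an SE of 0.89, and 3.38 without R-21. The gene rested on 17 to 17876 reads per tumor.

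Hs3st3b1 was well expressed in both cohorts. Controls ran from 16.7 CPM in N-15 through a median of 50.3 CPM to 79.4 CPM in N-17. RhoC tumors ran from 7.79 CPM in R-13 through a median of 79.9 CPM to 864 CPM in R-21. Here the cohorts overlapped, with 6 RhoC tumors above every control and 2, R-13 and R-14, below every control. This gave a log2 fold change of 1.93 with an SE of 0.69, from 49.5 ± 24.5 CPM to 188 ± 249 CPM, and 1.36 without R-21. The RhoC tumors were thus spread to both sides of the controls.

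Hs3st1, whose product makes the antithrombin-binding structure of heparin, lies elsewhere, on chr5:39613935-39755475. Its levels were wide in both cohorts, from 1.76 CPM in N-1 through a median of 20.9 CPM to 149 CPM in N-8 in controls. RhoC tumors ran from 7.83 CPM in R-10 through a median of 30.6 CPM to 202 CPM in R-21. Only R-21 exceeded the highest control. Its log2 fold change of 0.68 was no larger than its SE of 0.70, and was 0.32 without R-21 and 1.36 without N-8. Over only the tumors whose replicate numbers occur in both cohorts it was 3.16 with the replicate number as a block and 2.53 without it.

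**Figure D1:**
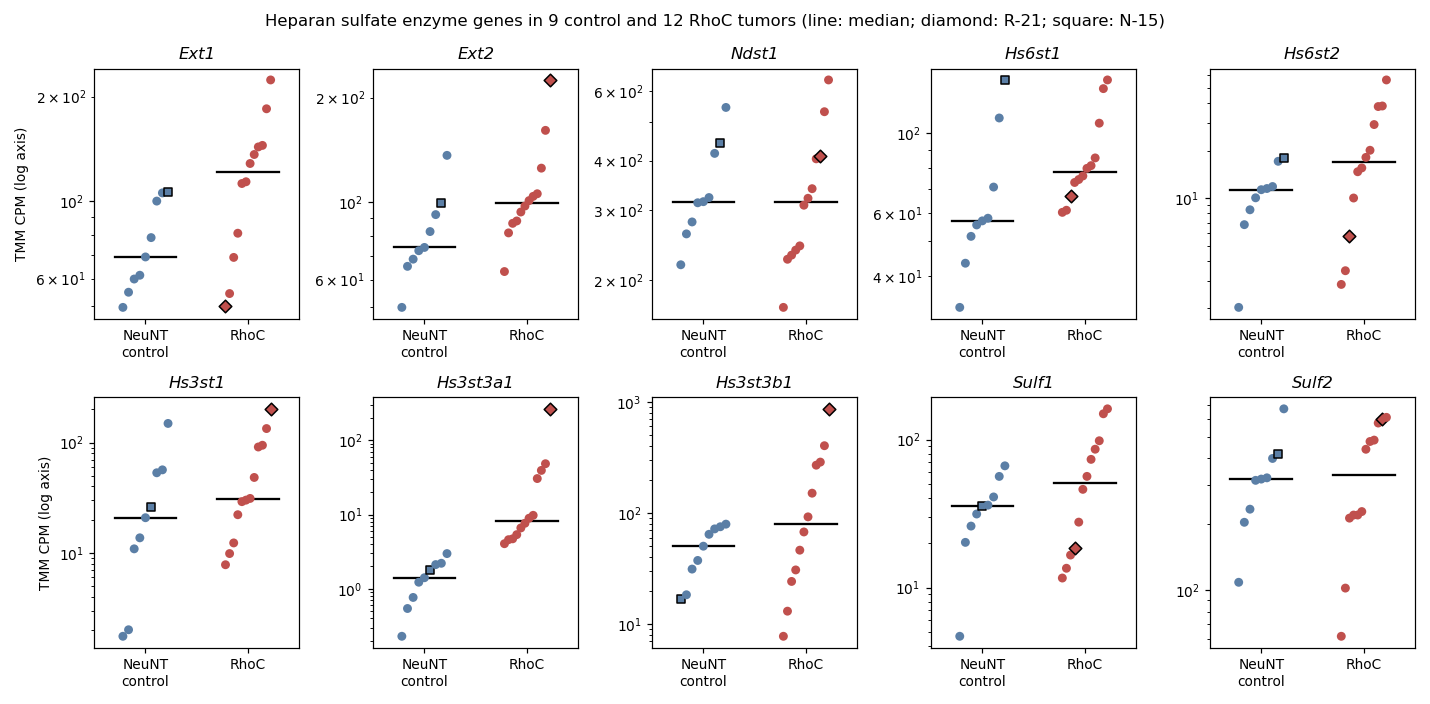
CPM (TMM-scaled, log axis) of the 10 genes in each of the 9 control (blue) and 12 RhoC (red) tumors, 1 point per tumor in order of level, with the cohort median as a line, R-21 as a diamond and N-15 as a square. For Hs3st3a1 the 12 RhoC tumors lie above all controls, while the other 9 genes overlap between cohorts.

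Per length, Hs3st3a1 remained the smallest 3-O-sulfotransferase transcript of the 3 in every tumor but R-10 and R-13. Deposited FPKM, which divide by gene length as well as library size, allow levels of different genes to be set side by side. Hs3st3a1 made up 0.385% to 4.02% of the summed FPKM of the 3 genes in controls, with a median of 1.89%. In RhoC tumors its share ran from 3.26% in R-15 to 21.8% in R-13, with a median of 7.79%. Its share was high in R-13 at only 6.60 CPM, where Hs3st3b1 and Hs3st1 were both low. Hs3st1 held a median share of 54.1% in controls and 53.2% in RhoC tumors, and Hs3st3b1 held 44.1% and 42.7%.

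Hs3st3a1 and Hs3st3b1 share identical sequence, which matters because the authors' counting discarded reads that fit both. Of all 100-base stretches of the longest Hs3st3a1 transcript (GENCODE M21), 7.86% also occur in Hs3st3b1 transcripts, and 6.28% the other way round. The remaining stretches were not compared with other genes. Sulf1 and Sulf2 shared none of this length, nor did Hs6st1 and Hs6st2. In the same annotation F930015N05Rik, on the opposite strand, overlaps 1295 exonic bases of Hs3st3a1. Whether counting used the strand is not given in the sources used here, so reads from that gene cannot be told apart from those of Hs3st3a1.

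High Hs3st3a1 in single tumors went with high levels of its neighbours. Among the 21 genes with a mean over 1 log2 CPM within 1.5 Mb of the pair, Hs3st3b1, the antisense transcript 2810001G20Rik and Hs3st3a1 were the most raised in R-21. They stood 3.75, 3.94 and 5.84 log2 CPM above their medians over 21 tumors. R-10 stood above the medians by 2.65, 1.9996 and 3.39, R-16 by 2.16, 2.20 and 3.09, and R-7 by 2.06, 1.41 and 2.72 in the same order. Cox10, a heme A synthesis enzyme of mitochondria lying between them, was above its median by 0.92 in R-21 and 1.28 in R-10. The 17 genes outside this interval lay between -2.58 and 1.44 in R-21 and between -1.27 and 1.06 in R-10. The nearest on one side, the myelin protein gene Pmp22, was the highest of them in both tumors, and the nearest on the other side, Elac2, lay at -0.23 and 0.06. R-13 went the other way, with Hs3st3b1 at -3.04 and 2810001G20Rik at -2.29 but Hs3st3a1 at 0.52. This stretch of chromosome 11 and its tumors were singled out after their values were seen. Erbb2 starts 33.9 Mb beyond Hs3st3a1 on the same chromosome.

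**Figure D2:**
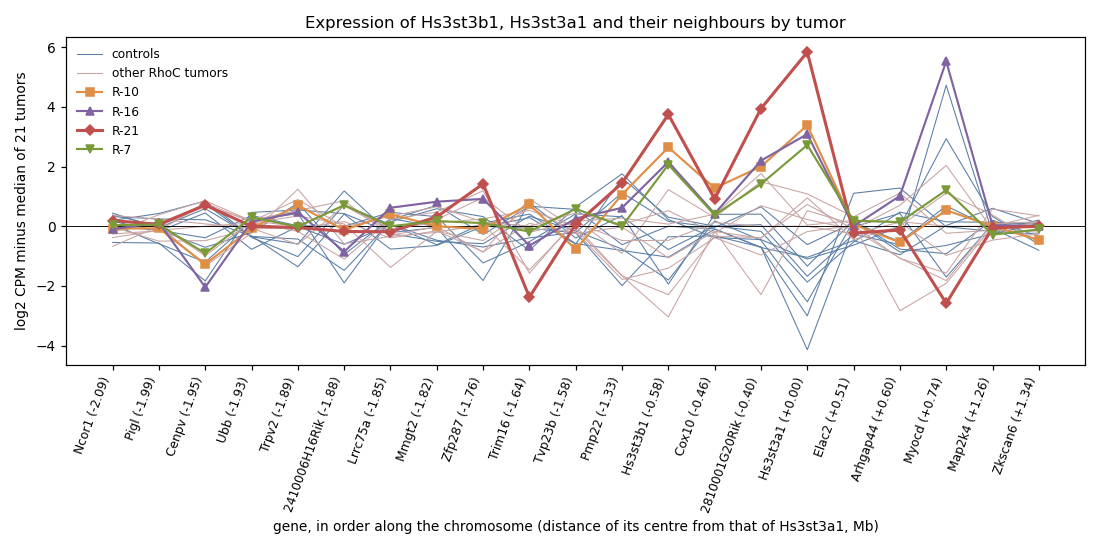
Level of the 21 genes around Hs3st3b1 and Hs3st3a1 in each tumor, as log2 CPM minus the median of the 21 tumors, with genes in chromosome order and their distance from Hs3st3a1 in Mb. R-21, R-10, R-16 and R-7 are raised together at Hs3st3b1, 2810001G20Rik and Hs3st3a1, R-21 by 3.75 to 5.84, and less at Cox10. The peak of R-16 at Myocd is 5.53.

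2810001G20Rik ran from 0.937 CPM in N-8 to 2.46 CPM in N-3 among controls. It ran from 0.292 CPM in R-13 to 24.4 CPM in R-21 among RhoC tumors, with R-16 next at 7.26 CPM. It was also the second most alike of all tested genes to Hs3st3b1, with a Pearson r of 0.857 over the 21 tumors once cohort means were removed, after the glycosyltransferase gene B4galt6 at 0.869. For Hs3st3a1 the most alike were Frmd3 at 0.845, the prostaglandin F receptor gene Ptgfr at 0.829 and the myosin gene Myo7a at 0.778. Frmd3 was near the floor, with a mean of -1.44 log2 CPM. These points share libraries and the rise of R-21.

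Tumors of 1 mouse differed several-fold at the 3-O-sulfotransferases, though less than the 21 tumors together. In mouse P497, Hs3st3b1 was at 7.79 CPM in R-13, 13.1 CPM in R-14, 92.3 CPM in R-15 and 287 CPM in R-16, a 36.8-fold range. Hs3st3a1 ranged 7.31-fold in the same 4 tumors, from 5.36 CPM in R-15 to 39.2 CPM in R-16. In mouse N9255, R-7 exceeded R-6 at Hs3st3b1 by 11.1-fold and at Hs3st3a1 by 7.52-fold. Ranges of several-fold were not particular to these genes, since Sulf2 ranged 5.64-fold in P497 and 9.93-fold in N9255, and Sulf1 3.24-fold and 5.83-fold. The 36.8-fold range of Hs3st3b1 in P497 was wider than any of these. Ext1 ranged 1.27-fold in P497 and 1.98-fold in N9255, and Ext2 1.22-fold and 1.34-fold.

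Ext1 and Ext2 form the complex that adds the alternating sugars of the chain. Ext1, on chr15:53064038-53346159, ran from 49.6 CPM in N-7 through a median of 69.2 CPM to 106 CPM in N-15 in controls. RhoC tumors ran from 50.01 CPM in R-21 through a median of 121 CPM to 223 CPM in R-6. Of the RhoC tumors, 8 were above every control, and R-21, the highest tumor for Hs3st3a1, was the lowest of its cohort here. Its log2 fold change was 0.66 with an SE of 0.25, and 0.73 without R-21.

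Ext2, on chr2:93661028-93822568, ran from 49.9 CPM in N-4 through a median of 74.2 CPM to 136 CPM in N-8 in controls. RhoC tumors ran from 63.3 CPM in R-2 through a median of 99.4 CPM to 225 CPM in R-21. Only 2 RhoC tumors were above every control, but 11 of 12 were above the control median. For Ext2 the log2 fold change was 0.43 with an SE of 0.20, and 0.29 without R-21. Ext1 took 37.1% to 50.1% of the summed FPKM of both genes in controls. In RhoC tumors it took 15.4% in R-21 and up to 66.1% in R-6, so the balance of the subunits' transcripts was wider there.

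Ndst1 removes acetyl groups along the chain and replaces them with sulfate, the step on which later sulfation builds. It lies on chr18:60684494-60748650. Its controls ran from 219 CPM in N-4 through a median of 315 CPM to 545 CPM in N-8, and RhoC tumors from 171 CPM in R-2 through a median of 315 CPM to 639 CPM in R-16. The cohorts lay on top of each other, with means of 346 ± 102 and 339 ± 138 CPM. The log2 fold change was -0.03 with an SE of 0.22, and of the 29 alternative settings 10 gave a positive value. Ndst1 was the only 1 of the 10 genes with a lower mean in RhoC tumors.

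Hs6st1 and Hs6st2 add the 6-O-sulfates that the sulfatases later remove. Hs6st1, on chr1:36068400-36106446, ran from 32.6 CPM in N-4 through a median of 57.0 CPM to 141 CPM in N-15 in controls. RhoC tumors ran from 60.2 CPM in R-13 through a median of 78.0 CPM to 141 CPM in R-12. All 12 RhoC tumors were above the control median, yet just 1 was above the highest control. The log2 fold change of 0.33 with an SE of 0.23 became 0.53 without N-15.

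Hs6st2, on chrX:51387212-51681856, was lower and more variable. Controls ran from 2.03 CPM in N-9 through a median of 11.3 CPM to 18.1 CPM in N-15, and RhoC tumors from 2.84 CPM in R-1 through a median of 16.8 CPM to 56.1 CPM in R-15. The 3 highest RhoC tumors, R-15, R-16 and R-13, were all of mouse P497. Its log2 fold change was 0.96 with an SE of 0.47, but 0.41 with counts summed over each mouse and 0.27 without the tumors of P497. Per length Hs6st1 was the main 6-O-sulfotransferase transcript in every tumor, with 77.7% to 97.0% of their FPKM in controls and 65.8% to 97.0% in RhoC tumors.

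Sulf1 and Sulf2 are secreted sulfatases that cut 6-O-sulfates from chains at the cell surface. Sulf1, on chr1:12692277-12861192, ran from 4.69 CPM in N-9 through a median of 35.5 CPM to 66.4 CPM in N-4 in controls. RhoC tumors ran from 11.6 CPM in R-1 through a median of 51.2 CPM to 161 CPM in R-6, with R-13 next at 149 CPM. Of the RhoC tumors 5 were above every control and 5 below the control median. For Sulf1 the log2 fold change was 0.84 with an SE of 0.49, and 0.45 with counts summed over each mouse.

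Sulf2, on chr2:166073089-166155663, did not separate the cohorts. Controls ran from 109 CPM in N-7 through a median of 321 CPM to 670 CPM in N-8, and RhoC tumors from 61.7 CPM in R-6 through a median of 333 CPM to 613 CPM in R-7. Its log2 fold change was 0.08 with an SE of 0.37, and -0.01 without R-21. Sulf2 shares 154 exonic bases with Ncoa3 on the opposite strand. In R-6 the usual order of the sulfatases turned. Sulf2 made up 86.7% to 98.7% of their summed FPKM in controls, and between 51.6% in R-13 and 98.2% in R-18 in 11 RhoC tumors, but 37.3% in R-6.

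**Figure D3:**
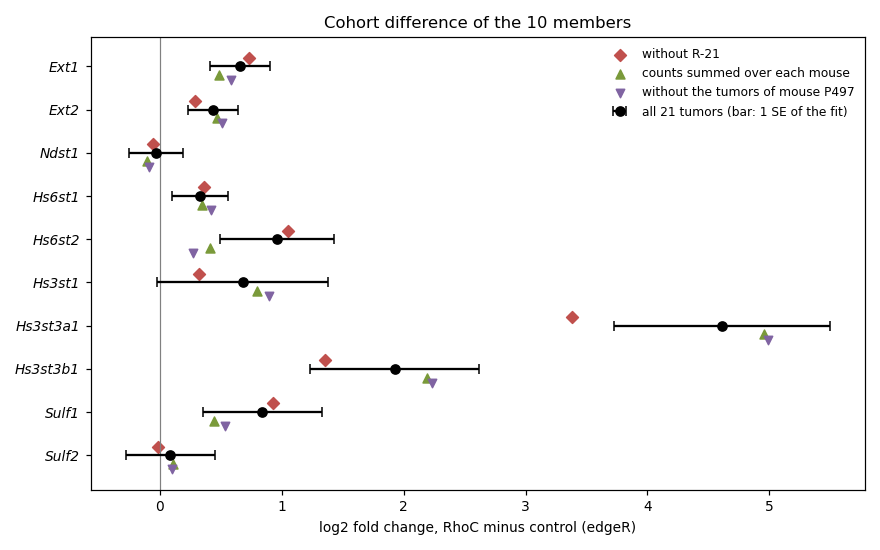
Log2 fold change of RhoC over control tumors for the 10 genes (edgeR), with 1 SE as a bar for all 21 tumors, and the value without R-21, with counts summed over each mouse, and without the 4 tumors of mouse P497. Hs3st3a1 moves from 4.61 to 3.38 without R-21, and Hs6st2 from 0.96 to 0.27 without P497.

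Of the 10 genes, 9 had a higher mean in RhoC tumors, where 49.6% of all tested genes did. The median log2 fold change of the 10 was 0.67, beside -0.01 over all tested genes. At an adjusted p under 0.05 (edgeR's quasi-likelihood test with Benjamini-Hochberg adjustment) Hs3st3a1 alone was called, where 0.223% of all tested genes were called and 0.0932% were called higher. Hs3st3a1 was no longer called with counts summed over each mouse, without the tumors of P497, or without any one of N-1, N-4, N-7, N-8 and N-9. DESeq2 called Hs3st3a1 and Hs3st3b1, where it called 6.24% of all tested genes. An unadjusted p under 0.05 was reached by 4 of the 10, all higher, against 10.5% of all tested genes higher and 9.93% lower. The cohorts did not overlap at 3 genes, which is 0.0155% of those tested, and Hs3st3a1 was the one that was higher in RhoC tumors. The genes were chosen on this same contrast, so these shares describe the choice.

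Per length the 10 transcripts spanned a wide range. Over the 21 tumors the median FPKM was 61.6 for Sulf2, 37.6 for Ndst1 and 19.9 for Hs6st1. Ext2, Hs3st3b1, Hs3st1 and Ext1 followed closely, from 14.1 down to 12.6 FPKM. Sulf1 at 4.49, Hs6st2 at 2.52 and Hs3st3a1 at 1.15 FPKM were lowest. For each pair of neighbours in this order the ranges over tumors overlapped. From the lowest to the highest tumor the spread in CPM was 1148-fold for Hs3st3a1, 115-fold for Hs3st1 and 111-fold for Hs3st3b1. It was 3.74-fold for Ndst1, 4.32-fold for Hs6st1 and 4.50-fold for Ext1 and for Ext2. Of the 10 genes the 3-O-sulfotransferases thus varied most, and R-21 was the highest tumor for each of them. Next below R-21 were R-10 at 48.2 CPM for Hs3st3a1 and 403 CPM for Hs3st3b1, and N-8 at 149 CPM for Hs3st1.

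Once cohort means were removed, the 10 genes varied among the 21 tumors in a pair of blocks. Ext1, Sulf1 and Hs6st2 varied together, with r of 0.73 for Ext1 and Sulf1, 0.65 for Ext1 and Hs6st2 and 0.80 for Sulf1 and Hs6st2. Ext2, Ndst1, Hs3st1, Sulf2, Hs3st3b1 and Hs3st3a1 formed the other block, with r from 0.40 to 0.72. With the tumors of each mouse averaged, r over 17 mice ran from 0.67 to 0.83 in the first block but from 0.06 (Ndst1 and Hs3st3b1) to 0.78 in the second. The place of Hs3st3a1 there depended on few mice for its partners Ext2 and Hs3st3b1, and with Ndst1 its r over mice was low throughout. When the mice of the 2 values farthest from the median of the first gene were left out, its r over mice went from 0.56 to 0.14 with Ext2 (without R-21 and N-8), from 0.21 to 0.01 with Ndst1 (without R-2 and N-8) and from 0.74 to 0.33 with Hs3st3b1 (without R-21 and R-10). With Hs3st1 this r went from 0.44 to 0.40 without N-8 and N-1, and with Sulf2 from 0.44 to 0.37 without R-21 and R-10. The mice left out were not the same, and R-21 was kept for Ndst1 and Hs3st1. The sizes of these changes therefore cannot be compared between partners. With Sulf1, of the first block, r of Hs3st3a1 went from 0.35 to 0.78 without R-21 and R-10. Partners of 1 enzyme step could fall in different blocks, so that r was -0.15 for Ext1 and Ext2 and -0.23 for Sulf1 and Sulf2. Hs6st1 followed neither block closely, with its highest r at 0.44, to Ndst1.

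**Figure D4:**
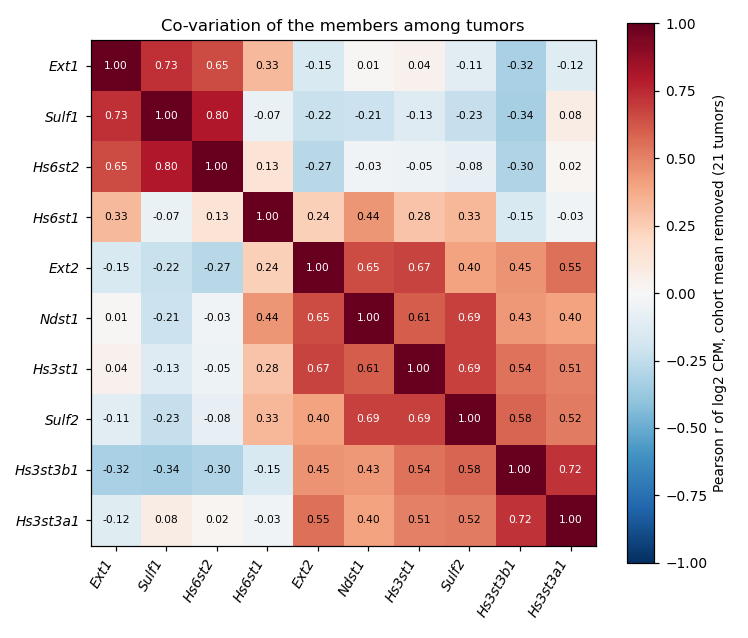
Pearson r between the 10 genes over 21 tumors, from log2 CPM with the mean of each cohort removed. Ext1, Sulf1 and Hs6st2 form one block of high values (0.65 to 0.80), and Ext2, Ndst1, Hs3st1, Sulf2, Hs3st3b1 and Hs3st3a1 another (0.40 to 0.72), which was looser over 17 mice (0.06 to 0.78). Without the mice of R-21 and R-10, r of Hs3st3a1 over mice went from 0.74 to 0.33 with Hs3st3b1 and from 0.44 to 0.37 with Sulf2.

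Over 17 mice, from log2 CPM with cohort means removed and the tumors of a mouse averaged, 8 relations were tested with 100000 permutations, two-sided, and adjusted over the 8. Hs3st3a1 and Hs3st3b1 were related (r = 0.74, permutation p = 0.00126, adjusted p = 0.00504; rho = 0.58, permutation p = 0.0159, adjusted p = 0.0423). Without the 2 mice farthest from the median of Hs3st3a1, those of R-21 and R-10, r was 0.33, so the relation rested on these mice, and without R-21 alone it was 0.53 (permutation adjusted p = 0.141). No relation of Ext1 and Ext2 was detected (r = -0.10, permutation p = 0.703, adjusted p = 0.703; rho = 0.03, permutation p = 0.921, adjusted p = 0.921), and without 2 mice r was 0.26. Sulf1 and Sulf2 gave r = 0.11 (permutation p = 0.680, adjusted p = 0.703; rho = 0.16, permutation p = 0.543, adjusted p = 0.724), and -0.06 without 2 mice. Hs6st1 and Hs6st2 gave r = 0.23 (permutation p = 0.376, adjusted p = 0.703; rho = 0.19, permutation p = 0.471, adjusted p = 0.724), and 0.13 without 2 mice. In a family of all 45 pairs of the 10 genes, added after seeing the data, 33 had a positive r and 7 passed an adjusted permutation p of 0.05 by Pearson r, all 7 positive, of which 4 also passed by rho. The strongest was Hs6st2 with Sulf1 (r = 0.83, permutation p = 0.00018, adjusted p = 0.00608; rho = 0.73, permutation p = 0.00143, adjusted p = 0.0215), at 0.71 without 2 mice. Next was Ext2 with Ndst1 (r = 0.78, permutation p = 0.00027, adjusted p = 0.00608; rho = 0.78, permutation p = 0.00049, adjusted p = 0.0215), at 0.72 without 2 mice.

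Sulf1 went with fibroblast markers, and for Sulf2 no such relation was detected. Against the mean log2 CPM of 10 fibroblast genes such as Col1a1, Pdgfra and Dcn, Sulf1 gave r = 0.79 (permutation p = 0.00013, adjusted p = 0.00104; rho = 0.74, permutation p = 0.00086, adjusted p = 0.00688), and 0.63 without 2 mice. Sulf2 gave r = 0.11 (permutation p = 0.658, adjusted p = 0.703; rho = 0.10, permutation p = 0.710, adjusted p = 0.812), and 0.21 without 2 mice. The difference between these relations was not tested. N-9, lowest of all tumors for Sulf1, also had the lowest fibroblast sum at 380 CPM, and R-13, second for Sulf1, had the highest at 12379 CPM. The sum ran from 380 to 7829 CPM in controls and from 1742 to 12379 CPM in RhoC tumors. Of the 10 markers 6 had a higher mean in RhoC tumors, and none was called by edgeR. The 1 at an unadjusted p under 0.05 was Dcn, which was lower in RhoC tumors, at 40.0 ± 48.3 CPM against 119 ± 114 CPM in controls. The part of fibroblast content in the Sulf1 values was not tested further.

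With cohort means removed, Hs3st3a1 was lower where basal markers were high. Against Krt5, Krt14, Trp63, Acta2 and Myh11 it gave r = -0.60 (permutation p = 0.00993, adjusted p = 0.0265; rho = -0.63, permutation p = 0.00765, adjusted p = 0.0306), and -0.43 without 2 mice. Without R-21 it gave -0.47 (permutation adjusted p = 0.182), which no longer passed. The summed basal markers ran from 80.0 to 2562 CPM in controls and from 47.4 to 16746 CPM in RhoC tumors. The 4 highest tumors were R-6, R-13, R-14 and R-12, in which the summed squamous markers (Krt1, Krt10, Ivl, Lor and Krt6a) were at 365 to 4640 CPM. Krt6a alone reached 4610 CPM in R-6, whereas Krt1, Krt10 and Lor stayed at or below 2.54 CPM in every RhoC tumor. In these 4 tumors Hs3st3b1 was between 7.79 and 30.8 CPM, below the control median, and Ext1 was above every control. Hs3st3a1 was at 4.05 to 8.92 CPM in them, still above every control. All 5 basal markers had a higher mean in RhoC tumors and none was called. Hs3st1 was compared with 6 endothelial markers, giving r = 0.15 (permutation p = 0.555, adjusted p = 0.703; rho = 0.19, permutation p = 0.460, adjusted p = 0.724), and 0.07 without 2 mice.

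The genes most alike to each member over 21 tumors, with cohort means removed, were as follows. For Sulf2 they were Mia at 0.940, Adgrg2 at 0.893 and Gabrp at 0.888, of which Gabrp codes for a GABA receptor subunit. For Sulf1 they were the ETS factor gene Elk3 at 0.902, Tmem65 at 0.890 and the metalloproteinase inhibitor gene Timp1 at 0.884. Hs6st2 went with the matrix genes Col12a1 at 0.867 and Thbs2 at 0.846. Ext1 went with the splicing factor gene Rbfox2 at 0.895, Il4ra at 0.844 and Itpripl2 at 0.842. Ext2 went with the Golgi and endoplasmic reticulum genes Arfgap1 at 0.903, Rpn2 at 0.891 and Pigs at 0.885. Ndst1 went with Gpat4 at 0.837, Slc35d3 at 0.812 and 1110008P14Rik at 0.791. Hs3st1 went with Gm42528 at 0.894, Abtb2 at 0.848 and the Wnt receptor gene Fzd5 at 0.847. Hs6st1 had the weakest likeness, with Gm42141 at 0.752, Gm37277 at 0.751 and Dnd1 at 0.747. Of these Gm42141 was near the floor, with a mean of -1.19 log2 CPM. Each was picked as the highest among all tested genes outside the 10, over tumors that share libraries and mice.

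Between controls with and without the Gata4 loxP allele, a contrast not used to choose the genes, no difference was called at any of the 10. None was called by edgeR's quasi-likelihood test or by DESeq2, and none reached an unadjusted p under 0.05, where edgeR called 0.00915% of 21846 tested genes and 6.99% reached an unadjusted p under 0.05. Hs3st3a1 was at 1.80 CPM in N-15 and 1.41 CPM in N-17, inside the 0.230 to 2.98 CPM of the 7 loxP controls. The largest size relative to its SE was at Ext1, with 106 and 100 CPM in N-15 and N-17 and 49.6 to 106 CPM in the others. Its log2 difference was -0.59 with an SE of 0.30 (edgeR adjusted p = 0.736).

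Outside the 10 genes, 39 others of heparan sulfate metabolism were listed by role, and 35 had counts enough to be tested. Of these 24 had a higher mean in RhoC tumors and 11 a lower one, and the median log2 fold change was 0.25. None was called by edgeR in either direction. At an unadjusted p under 0.05 there were 9, all higher, against 10.5% of all tested genes. DESeq2 called 5, all higher, namely B4galt7, Extl3, Naglu, Hs6st3 and B3gat3, where it called 6.24% of all tested genes.

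The linker enzymes, which attach the first sugars to the core protein, held 4 of the 9. B4galt7, the first galactosyltransferase of the linker, ran from 6.60 CPM in N-4 through 11.4 to 14.4 CPM in N-15 in controls, and from 14.3 CPM in R-7 through 16.8 to 27.9 CPM in RhoC tumors. The cohorts met only at their edges, with 11 of 12 RhoC tumors above every control. Its means were 11.3 ± 2.27 CPM (n = 9) and 18.8 ± 4.76 CPM (n = 12), with a log2 fold change of 0.73, an SE of 0.16 and an edgeR adjusted p of 0.0536. It passed the threshold without N-15, R-10, R-12 or R-18 (adjusted p from 0.0337 to 0.0474 with edgeR) and with the loxP controls alone (edgeR adjusted p = 0.0311). It did not pass in the other edgeR settings, where the adjusted p was 0.0942 without N-9, 0.201 with counts summed over each mouse, 0.255 without P497 and 0.702 with the replicate block. B3gat3, which ends the linker, Fam20b, which phosphorylates it, and Xylt2, which starts it, had edgeR adjusted p values of 0.125, 0.118 and 0.166.

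Extl3 starts the chain on the linker. Controls ran from 57.8 CPM in N-4 through 80.8 to 103 CPM in N-8, and RhoC tumors from 90.4 CPM in R-2 through 119 to 159 CPM. Of 12 RhoC tumors 10 were above every control. The log2 fold change was 0.55 with an SE of 0.13 and an edgeR adjusted p of 0.0602, and that p was 0.0436 without N-15, 0.0339 with the loxP controls alone, 0.110 without N-1, 0.244 with counts summed over each mouse and 0.274 without P497. Extl1 and Extl2 of the same family did not reach an unadjusted p under 0.05.

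edgeR called none of the other sulfation enzymes. Ndst2, the partner of Ndst1 best known from mast cells, had a log2 fold change of 0.44 with an edgeR adjusted p of 0.174. Glce, the epimerase, was at 47.3 ± 9.76 CPM in controls and 45.7 ± 10.2 CPM in RhoC tumors, and Hs2st1, the 2-O-sulfotransferase, at 137 ± 38.8 and 117 ± 31.3 CPM. Hs6st3 was near the floor, at 0.174 ± 0.159 CPM in controls and 0.881 ± 1.36 CPM in RhoC tumors, and was called by DESeq2 alone (adjusted p = 0.0311, against 0.130 with edgeR). Of the other 3-O-sulfotransferases, Hs3st2, Hs3st4 and Hs3st5 were too low to test, and Hs3st6 stayed at or below 1.05 CPM in every tumor.

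Of the genes that supply sugar nucleotides and sulfate, 7 of 9 had a higher mean in RhoC tumors and none reached an unadjusted p under 0.05. The smallest p belonged to Ugp2, which makes UDP-glucose, at 136 ± 52.6 CPM in controls and 108 ± 28.3 CPM in RhoC tumors. Degradation genes were split, 5 higher and 5 lower. Naglu and Sgsh, lysosomal enzymes lost in Sanfilippo disease, had log2 fold changes of 1.04 and 0.83 and edgeR adjusted p values of 0.101 and 0.130. All 12 RhoC tumors were above the control median of each. Heparanase (Hpse), the enzyme that cuts chains in the matrix, was at 7.60 ± 5.67 CPM in controls and 4.31 ± 3.33 CPM in RhoC tumors (edgeR adjusted p = 0.275). Its relative Hpse2 was at 13.7 ± 10.3 and 4.87 ± 5.68 CPM (edgeR adjusted p = 0.354). Of the 12 RhoC tumors, 1 was above the control median of Hpse and 0 above that of Hpse2.

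**Figure D5:**
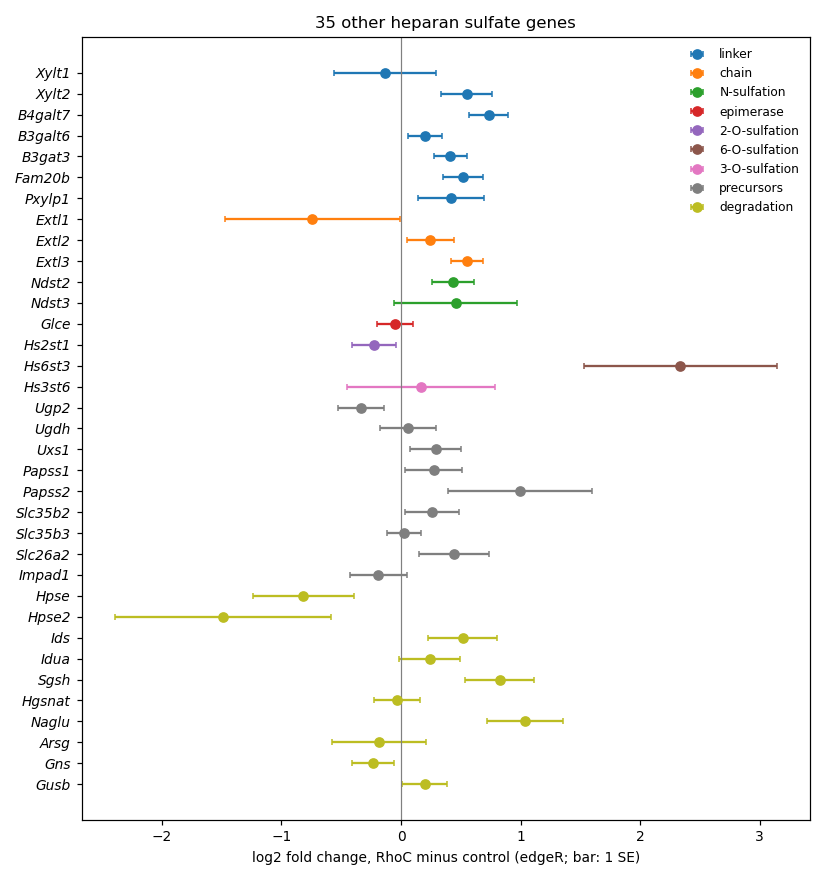
Log2 fold change of RhoC over control tumors, with 1 SE as a bar, for the 35 tested heparan sulfate genes outside the 10, colored by role. Values lie between -1.49 (Hpse2) and 2.34 (Hs6st3), and 24 of 35 are above 0.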

How the data were processed

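Total RNA of 21 mammary tumors was sequenced after ribosomal RNA removal. Per the study's methods the authors checked reads with FastQC 0.11.5, trimmed them with Trim Galore 0.5.0, aligned them with STAR 2.6.0c to GRCm38.p6 and counted uniquely mapping reads per gene with HTSeq 0.6.1p2, discarding reads on more than one gene. The release of the annotation and the use of strand in counting are not given in the sources used here. The authors deposited raw counts for each tumor, and tables of FPKM that also hold their own log2 fold changes and p-values, which were not used. FPKM deposited by the authors served to compare levels between genes.

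Cohorts came from the sample labels, without pooling of tumors. Tests were run in R 4.3.3 with edgeR 4.0.16 (filterByExpr by cohort, TMM, quasi-likelihood test, no covariates, Benjamini-Hochberg adjusted p under 0.05 over all tested genes). CPM are counts over the TMM-scaled library size of the tested genes. Log2 CPM use a prior count of 2. The SE is the log2 fold change over the square root of F. p-values measure the spread between tumors, of which some share a mouse. Relations used permutation tests over mice. Named genes were the 10 members, for each pathway role the gene with the smallest p, for each member the 3 genes most alike in log2 CPM (2 of these genes are not reported here), and Rhoc, Erbb2 and Gata4 (Gata4 was too low to be tested). The remaining names were picked with their values in view. The members and lists were chosen with earlier results of these data known. Alternatives were DESeq2 1.42.0, library size scaling, all genes with a count, counts summed over each mouse, loxP controls alone, fits without each tumor or without mouse P497, and a replicate block. The steps were tested on simulated data. For the cohort test the simulated tumors were independent, with a spread capped below that of Hs3st3a1, Hs3st1 and Hs3st3b1. That check therefore does not cover these genes or tumors that share a mouse. Replicate numbers shared by both cohorts (1, 6, 7 and 15) were not taken to pair tumors.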

Additional observations from a re-analysis of the deposited data

Results flagged for a closer look

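Among the 9 controls, N-9 stood apart from the others at 2 of the 10 genes, by the gap to its nearest neighbour as a share of the range of log2 CPM. The share was 0.551 for Hs6st2, with N-9 at 2.03 CPM, and 0.55 for Sulf1, with N-9 at 4.69 CPM. N-9 was the lowest control in both. Chance alone flags about 1 in 20 such groups, and 10 were looked at. The same tumor had the lowest fibroblast marker sum, 380 CPM, and its part in these values was not tested.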

How the results depend on the processing

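The number of genes called between cohorts, 43 with edgeR, depended on the setting, while 8 of the 10 genes kept a higher mean in all 29 alternatives (Ndst1 was higher in 10 and Sulf2 in 25). Calls over all genes were 1206 with DESeq2, 27 with library size scaling, 438 with loxP controls alone, and 3 both with counts summed over each mouse and without mouse P497. Leaving out 1 tumor gave 14 (without N-9) to 346 (without N-15). For the 35 other heparan sulfate genes the calls were 5 with DESeq2, 2 with loxP controls alone and 0 to 2 with 1 tumor left out (2 without N-15). The median log2 fold change of the 10 genes lay between 0.55 and 0.80 with 1 tumor left out. Hs3st3a1 was not called with counts summed over each mouse, without P497, or without N-1, N-4, N-7, N-8 or N-9, and its log2 fold change stayed between 3.12 and 4.99. In the paired fit with the replicate number as a block, over the 8 tumors whose numbers 1, 6, 7 and 15 occur in both cohorts, edgeR called 0 genes (1346 at an unadjusted p under 0.05), and without the block 0 (2119). Same-numbered tumors correlated at -0.24, -0.19, -0.00 and 0.02, and 0 of 4 matched best. Between control genotypes, 2 genes were called by edgeR, 267 by DESeq2, 22 over all genes with a count, and 57 to 61 without N-17 or N-15, fits that leave 1 tumor without the allele and assume that it varies like the loxP controls. Without R-21 the relation of Hs3st3a1 to Hs3st3b1 gave r = 0.53 (permutation adjusted p = 0.141) and to basal markers -0.47 (permutation adjusted p = 0.182), and with N-15 left out instead 0.81 and -0.61. The causes of these changes were not tested. The lowest count in a tumor was 17 reads for Hs3st3a1 and 97 or more for the other 9 genes, which limits the precision of Hs3st3a1 in controls.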
